A study of Mus musculus with 39 samples.

Results

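Subcutaneous adipose tissue of mice on a high-fat diet with 5 µg of KAL-1 (HF5) was compared with that of mice on the high-fat diet alone (HFC). The HF5 arrays of Weeks 3, 6, 9, 12, 15 and 18 were each paired with the HFC array of the same week, which used 12 of the 39 arrays of the series, 6 for each diet. All mice were C57BL/6J and entered the diets as weanlings aged 3 to 4 weeks. The diet shared by both groups held extra sucrose and 60% of its calories as fat, and the light cycle and free access to food and water were also shared. KAL-1 is an aqueous botanical formulation whose components the labels do not name. There was 1 array per diet and week, the labels do not say whether an array holds RNA of 1 mouse or of a pool, and the p values therefore measure the spread of the weekly differences between arrays. The series also has a low-fat control diet (LFC) and the doses of 20 µg (HF20) and 75 µg (HF75), which are used here only where HF5 is set against them.

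Levels are log2 intensities relative to the 75th percentile of the same array, so a level of 0 lies at that percentile and a difference of 1 is 2-fold. Between 60.2% and 68.4% of the spots of these 12 arrays were well above background (median 65.2%). The 10 marker genes of mature adipocytes had a mean level of 3.28 to 5.61 on the HF5 arrays and of 1.94 to 5.58 on the HFC arrays, so adipocyte RNA was seen on every array. These markers do not tell 1 fat depot from another. The label of 1 HF5 array, that of Week 12, was in doubt. Its title has a B after the week where those of the HF20, HF75 and HFC arrays of that week have an S. Across 40628 probes, the Week 12 array labelled HF5 correlated at 0.663 with its own column of the deposited series table and at 0.999 with the column of HF20, whereas at the other weeks the HF5 array correlated with its own column at 0.992 or more. The results are given as labelled, with the values after exchanging these arrays or without Week 12 where they differ. The HF5 and HFC arrays were scanned on a shared day at 5 of the 6 weeks, the exception being Week 12.

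White adipose tissue stores triglyceride in mature adipocytes, and it grows by enlarging these cells and by forming new ones from dividing progenitors. Under a high-fat diet it also recruits macrophages and lymphocytes, while its adipocytes make part of their fat from glucose through the fatty acid synthesis enzymes. Genes of mitosis, fat synthesis, inflammation and the circadian clock are described in turn, from lists chosen with earlier results of these data known.

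Between HF5 and HFC, none of 19072 genes passed an adjusted p of 0.05 in limma (0%, smallest adjusted p 0.573). At an unadjusted p under 0.05 there were 661 genes (3.47%), of which 485 were higher in HF5 (2.54%) and 176 lower (0.923%). A comparison of the same values without moderation also gave 0 adjusted calls, with 454 genes at an unadjusted p under 0.05, and 700 when it was paired by week. With the Week 12 arrays exchanged the split was 209 higher and 245 lower, and without Week 12 it was 747 higher and 558 lower, so that 73.4% of these genes were higher as labelled, 46% after the exchange and 57.2% without Week 12. The HF5 value was above the HFC value at all 6 weeks for 290 genes (1.52%) and below it for 180 genes (0.944%). The groups did not overlap for 3 genes higher in HF5 (0.0157%), Cep63, 6430548M08Rik and Znhit6, with differences of 0.31, 0.50 and 0.56. The same held for 2 lower genes (0.0105%), Btd at −0.38 and Rab3gap2 at −0.39. These 5 genes were singled out after their values were seen. No gene below passed the adjusted threshold, and each is described by its values.

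Of the 10 lower genes with the smallest p among those lower at all 6 weeks, 6 act in the cell cycle or in DNA repair, namely Rad54b, Oip5, Dscc1, Cdc2a, Cdkn3 and Brca1. This grouping was made after their values were seen, and no enrichment was tested. Cdc2a, the array's name for Cdk1, encodes the kinase that drives entry into mitosis. Its level in HF5 was between −5.04 and −2.96 with a median of −3.58, and in HFC between −3.29 and −2.26 with a median of −2.99. The ranges overlapped. The HF5 array was the lower of its pair at each week, which the choice of these 10 genes required, by 0.45 to 1.76. The mean difference was −1.0 (SE 0.24, limma adjusted p 0.580).

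Rad54b, a helicase-like protein of homologous recombination, had levels of −6.60 to −4.94 in HF5 (median −5.39) and −5.71 to −4.02 in HFC (median −4.30). The difference was −1.05 (SE 0.22, limma adjusted p 0.573). Oip5, which helps to load the centromere histone, had levels of −6.08 to −4.90 in HF5 (median −5.82) and −5.04 to −4.25 in HFC (median −4.67), a difference of −1.05 (SE 0.24, limma adjusted p 0.573). For Oip5 1 HF5 array, that of Week 9, was above the lowest HFC array, whereas for Rad54b 4 of 6 HF5 arrays were. Dscc1, a subunit of the clamp loader for sister chromatid cohesion, differed by −0.92, Cdkn3, a phosphatase of cyclin-dependent kinases, by −0.67, and Brca1, a repair protein, by −0.90. The other 4 of these 10 genes are known for roles outside division: Spnb4, a spectrin, at −1.27, Asgr1, the asialoglycoprotein receptor, at −1.30, Syp, synaptophysin, at −0.84, and Lrrc4c, a membrane protein with leucine-rich repeats, at −1.21. With the Week 12 arrays exchanged all 10 kept their direction and 8 kept an unadjusted p under 0.05, but with normexp background correction only 2 did. Several of these probes were dim: Rad54b was well above background on 3 of 6 HF5 and 4 of 6 HFC arrays, Oip5 on 2 and 4, Asgr1 on 3 and 6, Brca1 on 4 and 6 and Lrrc4c on 4 and 5.

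**Figure D1:**
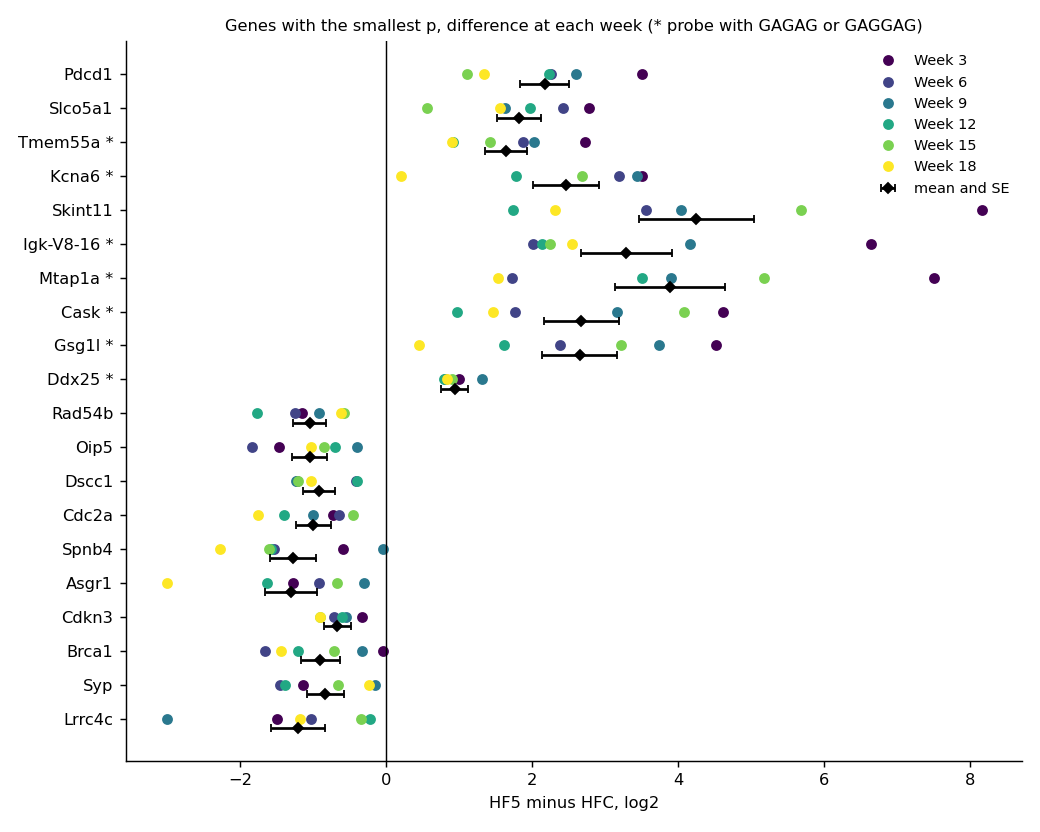
Weekly HF5 minus HFC differences of the named higher and lower genes on the log2 scale, each coloured point being 1 week and each black diamond the mean over the 6 weeks with its SE. An asterisk marks genes whose probe holds GAGAG or GAGGAG. The 10 lower genes lie below 0 and the 10 higher genes above 0 at every week because they were chosen so. The lower means run from −1.30 for Asgr1 to −0.67 for Cdkn3. Skint11 has a mean of 4.25 with a probe that 3 of the 6 HFC arrays did not measure above background. Ddx25 was saturated on all HF5 arrays.

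Among 24 cell cycle genes, 19 had a lower estimate in HF5, with a median difference of −0.32 against −0.01 over all genes tested. Hmmr, a spindle protein, Cdc2a and Kif20a, a kinesin of cell separation, were lower at an unadjusted p under 0.05, and Kif11, another mitotic kinesin, was higher. The 3 lower members stand beside 0.923% lower over all genes tested, and the 1 higher member beside 2.54% higher. Hmmr had levels of −6.23 to −4.79 in HF5 (median −6.07) and of −5.11 to −3.55 in HFC (median −4.79), with a difference of −1.27 (SE 0.33, limma adjusted p 0.647). The 6 HFC arrays were all above background for Hmmr, against 3 of 6 in HF5. Kif20a differed by −0.94 (SE 0.31, limma adjusted p 0.975). Week 3 went the other way for this group: the mean level of the list was −0.952 on the HF5 array and −2.11 on the HFC array of Week 3, whereas HFC was the higher at the 5 later weeks. Without Week 3, 11 of the 24 genes were lower at an unadjusted p under 0.05, beside 0.755% of all genes, and the median was −0.62. The median was −0.19 without Week 12, −0.24 without Week 9 and −0.29 with the Week 12 arrays exchanged. With normexp background correction it was −0.20, with 1 gene lower and 2 higher at an unadjusted p under 0.05, beside 0.598% and 2.23% of all genes. Ccna2 and Aurkb, a cyclin and a kinase of mitosis, differed by −0.75 and −0.77 over all 6 weeks.

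The promoters of these genes share known cell cycle elements, and that of Cdk1 is shown because its gene was lower at every week. Of the 19 list genes with a promoter in RefSeq (GRCm38.p6, 250 bases before to 50 after the start), 10 (52.6%) hold TTTGAA, the core of the cell cycle homology region, on either strand, against 17.9% of 32851 promoters. The CCAAT box is in 17 of them (89.5%) against 37.4%. These letters do not overlap each other. Capitals mark both motifs in the Cdk1 promoter, at chr10:69352863-69353162 on the minus strand.
Cdk1: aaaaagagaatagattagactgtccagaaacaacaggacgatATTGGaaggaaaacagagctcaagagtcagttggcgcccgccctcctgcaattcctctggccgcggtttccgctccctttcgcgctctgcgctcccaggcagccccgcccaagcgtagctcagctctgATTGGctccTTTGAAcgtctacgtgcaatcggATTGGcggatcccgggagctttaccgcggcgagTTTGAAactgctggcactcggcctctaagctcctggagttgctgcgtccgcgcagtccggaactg
A match is a description of the letters, and binding was not measured here.

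The 10 higher genes with the smallest p among those higher at all 6 weeks have varied known roles. Pdcd1, the inhibitory receptor PD-1 of activated T cells, had levels of −2.15 to 1.66 in HF5 (median −0.07) and of −4.40 to −0.47 in HFC (median −2.14). The ranges of the groups overlapped. HF5 was the higher at each week, again a condition of the choice, by 1.1 to 3.51. The mean difference was 2.17 (SE 0.33, limma adjusted p 0.573). Skint11, of a family expressed in skin and thymus, differed by 4.25 (SE 0.79), and by 2.40 with normexp correction. Slco5a1, a member of the organic anion transporter family, differed by 1.82 (SE 0.31), and by 0.71 with normexp correction. Both probes were well above background on all 6 HF5 arrays but on only 3 and 2 of 6 HFC arrays, so they passed the filter on dim probes through HF5 and the size of the difference is uncertain. The others were Tmem55a, a phosphoinositide phosphatase (1.64), Kcna6, a potassium channel (2.47), Igk-V8-16, an immunoglobulin light chain segment (3.29), Mtap1a, a microtubule protein of neurons (3.89), Cask, a synaptic scaffold kinase (2.68), Gsg1l, an auxiliary subunit of glutamate receptors (2.65), and Ddx25, a helicase of the testis. The Igk-V8-16 and Gsg1l probes were well above background on 4 of 6 HFC arrays. The Ddx25 probe was saturated on all 6 HF5 arrays and on 1 HFC array, so the size of its difference was not measured. Tmem55a was saturated on 3 HF5 arrays and 1 HFC array. Immunoglobulin segments share sequence with each other, so the Igk-V8-16 probe may read several of them. All 10 kept their direction with the Week 12 arrays exchanged, and 8 kept an unadjusted p under 0.05. Slco5a1 was then 0.87 in place of 1.82.

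What many of the higher genes shared was the letters of their probes. Of these 10 genes 7 were measured by a probe with GAGAG or GAGGAG, the exceptions being Pdcd1, Slco5a1 and Skint11, whereas none of the 10 lower genes was. The following stretches of 30 bases, each the part of its 60-base probe richest in GAG, show this in 4 genes that were higher and in 2 that were lower. Letters are those of the array annotation, 5′ to 3′, with GAG in capitals, and for 2 genes a second probe of the same gene is set beside the one used.
Tmem55a, probe used, difference 1.64: cttcaaGAGaacggatcaGAGAGAGAGAGt
Tmem55a, second probe, difference −0.15: gtttgtatagtagtctcaagaatttgtGAG
Mtap1a, probe used, difference 3.89: gaaaaggctGAGttaGAGGAGatgGAGGAG
Mtap1a, second probe, difference 0.20: aGAGtGAGaccctcGAGaccatcatcctag
Ddx25, probe used, saturated on all HF5 arrays: tcgaatattgaaGAGAGAGAGAGaaGAGAG
Mx1, probe used, difference 2.52: tttgtaaactctGAGGAGatGAGGAGAGAG
Cdc2a, probe used, difference −1.0: ttcatggattcttcactcgttaaGAGttac
Oip5, probe used, difference −1.05: aggataaagcgatgGAGgtaatagtgattg

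Probes with GAGAG or GAGGAG stood for 1858 of the genes tested (9.74%) and for 311 of the 485 higher genes (64.1%), but for 7 of the 176 lower genes (3.98%). The pattern was noticed in these data, and the shares are a description. The share of genes higher in HF5 was 0.714% for probes without GAG, 0.92% with 1 GAG, 2.56% with 2, 8.41% with 3, 19.7% with 4 and 42.9% with 5 or more. The complementary letters did not show it: probes with 5 or more CTC were higher in 0.943% and those without CTC in 2.81%. Of 85 genes with GAGAGAGA in the probe 70 (82.4%) were higher, with a median difference of 1.83, against 0 of 22 with TCTCTCTC. Among the genes whose probe held neither GAGAG nor GAGGAG, 174 were higher (1.01%) and 169 lower (0.982%) out of 17214.

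**Figure D2:**
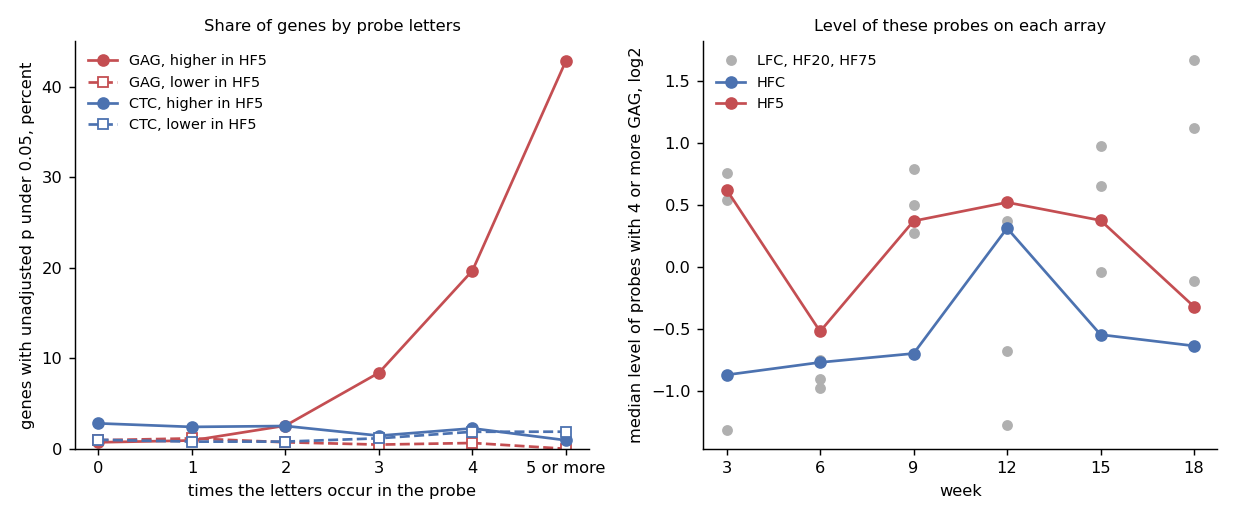
Share of genes higher or lower in HF5 at an unadjusted p under 0.05 against the number of GAG or CTC in the probe, and the median level of the probes with 4 or more GAG on each array by week, with the other diets in grey. The share higher is 0.714% without GAG and 42.9% with 5 or more, against 2.81% without CTC and 0.943% with 5 or more.

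The median level of the 678 genes whose probe held 4 or more GAG was −0.867 to 0.315 on the HFC arrays (median −0.664) and −0.517 to 0.625 on the HF5 arrays (median 0.376). The ranges overlapped, and the median weekly difference of these probes was 0.861 at Week 3, 0.187 at Week 6, 0.537 at Week 9, 0.215 at Week 12, 0.373 at Week 15 and 0.0697 at Week 18. Over all 39 arrays it ran from −1.52 to 1.67, and on the LFC, HF20 and HF75 arrays of the same weeks it was −1.31 to 1.67 with a median of 0.328. A second probe without the letters existed for 63 of the 311 higher genes. There the median difference was 2.12 by the probe used and −0.04 by the others, of which 28 had the same sign and 2 exceeded 1. For Cask the probe used gave 2.68 and the other 3 gave −0.21, −0.04 and 0.16. By contrast, 28 higher genes whose used probe lacked the letters had medians of 1.11 and 0.55, with 22 of 28 of the same sign, and 29 such lower genes had −0.67 and −0.57, with 27 of the same sign. With all GAGAG and GAGGAG probes left out of the fit, a choice made after these values were seen, 180 genes were higher and 175 lower at an unadjusted p under 0.05, and 0 of 17214 passed adjustment in limma. With the Week 12 arrays exchanged the pattern was weaker: 76 of the 209 higher genes had the letters (36.4%), the share higher with 5 or more GAG was 11.4%, and the Week 12 difference of the probes with 4 or more GAG was −0.292. Their level on the exchanged HF5 arrays was −0.675 to 0.625 with a median of 0.0278. Without Week 12, 337 of 747 higher genes had the letters (45.1%), and the share with 5 or more GAG was 42.4%. The part of the probe letters in the higher genes was not tested further.

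The fat synthesis and storage genes had mostly lower estimates in HF5, chiefly at Weeks 3 and 6. Of 16 fatty acid synthesis genes, 15 had a lower estimate, with a median difference of −0.73, and 1 of them, Scd2, was lower at an unadjusted p under 0.05, beside 0.923% of all genes. Fasn, the fatty acid synthase, had levels of 3.07 to 6.43 in HF5 (median 4.33) and of 3.12 to 6.52 in HFC (median 5.50), with a difference of −0.69 (SE 0.63, limma adjusted p 1.00). The groups covered almost the same range for Fasn, since HF5 was lower by 3.40 at Week 6 but higher by 2.01 at Week 12. The probes of Fasn and Scd1 were each saturated on 2 HFC arrays, where their levels and so the size of the difference may be understated. Scd1, the stearoyl-CoA desaturase of adipocytes, differed by −0.78 (SE 0.76), and its relative Scd2, whose probe holds GAGAG or GAGGAG, by −0.87 (SE 0.29, limma adjusted p 1.00). Without Week 12 the median of the list was −1.22 and 8 genes were lower at an unadjusted p under 0.05, beside 2.93% of all genes. Without Week 3 the median was −0.31 and none was, without Week 6 it was −0.37, and with the Week 12 arrays exchanged it was −0.74 and 2 were, beside 1.28% of all genes. None was without Week 9 or without Week 18 either.

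Fatty acid uptake and triglyceride storage followed the same course, with 15 of 18 estimates lower and a median of −0.52 (−1.12 without Week 12, −0.10 without Week 3, −0.22 without Week 6). Lpl, the lipase that frees fatty acids from lipoproteins, differed by −0.90 (SE 0.44, limma adjusted p 1.00), with 1 HFC array saturated. In cholesterol synthesis 16 of 18 estimates were lower, with a median of −0.35 (−0.17 without Week 3, −0.53 without Week 6), and 2 genes were lower at an unadjusted p under 0.05, beside 0.923% of all genes. These were Hmgcs1, which makes HMG-CoA, at −0.77 (SE 0.32), and Nsdhl, a later enzyme of sterol synthesis, at −1.12 (SE 0.42). None of the list was when Week 3, 6, 15 or 18 was left out. The medians were −0.24 for 15 fatty acid oxidation genes and −0.31 for 12 lipolysis genes, none of which passed an unadjusted p of 0.05. Without Week 12 they were −0.53 and −0.67, and without Week 3 they were 0.04 and 0.01. The smallest p of these lists belonged to Cpt1b, the muscle type carnitine transferase, at 0.70 (SE 0.58), and to Prkar2b, a regulatory subunit of protein kinase A, at −0.70 (SE 0.60), with 1 HFC array saturated.

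Of 14 fat expansion and imprinted growth genes 9 had a lower and 5 a higher estimate, with a median of −0.37 (−0.54 without Week 12, −0.13 without Week 3), and 1 of them, Sfrp5, was lower at an unadjusted p under 0.05 (0.923% of all genes). Igf2, an imprinted growth factor, differed by 0.70. Mest, an imprinted gene that rises as fat depots grow, had levels of 0.01 to 3.18 in HF5 (median 1.67) and of 0.39 to 4.62 in HFC (median 2.92), with a difference of −1.14 (SE 0.50, limma adjusted p 1.00). The ranges overlapped, and Mest was lower in HF5 at 5 of 6 weeks, the exception being Week 12 at 0.87. It was −1.60 with the Week 12 arrays exchanged, −1.55 without Week 12 and −0.71 without Week 3. Sfrp5, a secreted inhibitor of Wnt signalling made by adipocytes, differed by −0.97 (SE 0.36, limma adjusted p 1.00), and was −0.37 with normexp correction.

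Trhde, a peptidase that breaks down thyrotropin-releasing hormone, had the largest lower estimate among the genes named, at −2.54 (SE 0.63, limma adjusted p 0.610). Its levels were −8.43 to −4.38 in HF5 (median −7.38) and −5.30 to −2.74 in HFC (median −4.62). HF5 was lower at 5 of 6 weeks and differed by 0.16 at Week 12. The probe was well above background on 1 of 6 HF5 arrays and on all 6 HFC arrays, and with normexp correction, which lifts dim values, the difference was −0.32.

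Among the adipokines 9 of 13 estimates were lower, with a median of −0.70, and none passed an unadjusted p of 0.05. Leaving out Week 3, 6, 9 or 12 moved this median to −0.20, −0.31, −0.30 or −0.91. Lep, the satiety hormone leptin, differed by −1.24 (SE 1.07), from −5.67 at Week 3 to 2.47 at Week 12. Adipoq, adiponectin, differed by −0.43 (SE 0.71), with its probe saturated on 1 HF5 and 2 HFC arrays. Of the 10 mature adipocyte markers 6 had a lower and 4 a higher estimate, with a median of −0.18 (−0.71 without Week 12, 0.13 without Week 6). Their mean level was lower in HF5 at Weeks 3, 6, 9 and 18 and higher at Weeks 12 and 15, from 3.85 against 5.58 in HFC at Week 3 to 3.28 against 1.94 at Week 15. Their part in the fat gene differences was not tested. In bulk tissue fewer adipocytes and less RNA per adipocyte cannot be told apart.

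**Figure D3:**
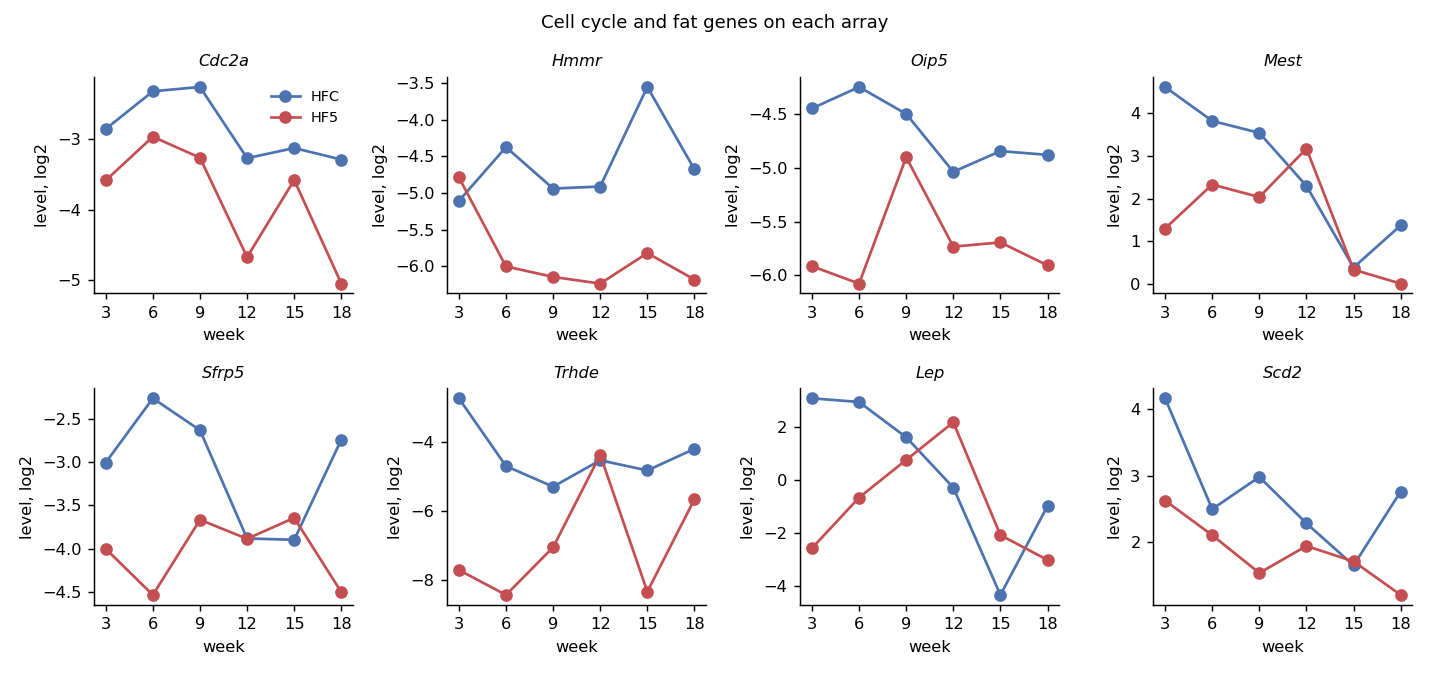
Levels of 3 division genes (Cdc2a, Hmmr, Oip5) and 5 fat genes on each HF5 and HFC array by week, in log2 relative to the 75th percentile of the array. Cdc2a and Oip5 lie lower in HF5 at every week, a condition of their choice, and Mest, Trhde and Lep lie lower in HF5 at Week 3 and not at Week 12.

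Of 17 inflammatory macrophage genes 13 had a lower estimate, with a median of −0.35 (−0.55 without Week 3, −0.06 without Week 12), and none passed an unadjusted p of 0.05. Cd68, a lysosomal protein of macrophages, differed by −0.71 (SE 0.42), Itgax, the integrin CD11c, by −0.82 (SE 0.49), and Ccl2, a chemokine that draws monocytes, by −0.20 (SE 0.30), with 2 arrays of each diet saturated. Emr1, a surface marker of mouse macrophages, differed by −0.08 (SE 0.54) and by 0.25 without Week 12. Chi3l3, a chitinase-like protein of alternatively activated macrophages, differed by 1.5 (SE 0.51, limma adjusted p 1.00) and was the 1 higher gene among 13 resident macrophage genes at an unadjusted p under 0.05 (2.54% of all genes). Of 15 complement genes 11 had a lower estimate, with a median of −0.23 (−0.61 without Week 9, 0.04 without Week 12). Among them C6, a part of the membrane attack complex, was lower at every week, by 0.39 to 2.85, with a mean of −1.12 (SE 0.34, limma adjusted p 0.837).

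H2-Ob, a chain of the MHC class II chaperone H2-O, differed by 2.43, Mx1, an interferon-induced GTPase, by 2.52 and Mmp13, a collagenase, by 2.08, each being the 1 higher member of its list at an unadjusted p under 0.05, beside 2.54% of all genes. All 3 probes hold GAGAG or GAGGAG, and so does that of Kif11 (2.52, and 1.31 with normexp correction), which was above background on 5 HF5 but only 2 HFC arrays. H2-Ob was so on 6 and 4. The medians of their lists were −0.32 for MHC class II, −0.09 for interferon-stimulated genes and 0.11 for matrix proteases. Over the weeks left out in turn they ran from −0.71 to −0.05, from −0.25 to 0.10 and from 0.06 to 0.46, each being highest without Week 12. Col15a1, a collagen of adipose basement membranes, differed by −0.76 (SE 0.26), the 1 lower of 20 matrix genes at that p (0.923% of all genes). Of the 20, 9 had a higher and 11 a lower estimate, with a median of −0.05 (−0.21 without Week 9, 0.18 without Week 12). Cd24a, a surface protein of adipocyte progenitors, differed by 1.20 (SE 0.33, limma adjusted p 0.693), the 1 higher of 13 progenitor genes (2.54% of all genes). Of the 13, 8 had a higher and 5 a lower estimate, with a median of 0.08 (−0.39 without Week 6, 0.39 without Week 12). Tbx1, a factor found in beige adipocytes, differed by 1.63 (SE 0.64) and by 0.52 with the Week 12 arrays exchanged. It was the 1 higher of 13 thermogenic genes at an unadjusted p under 0.05 (2.54% of all genes). Of these, 8 had a higher and 5 a lower estimate, with a median of 0.16 (−0.18 without Week 9, 0.58 without Week 3). Ucp1, the uncoupling protein of thermogenic fat, differed by 0.21 (SE 1.09), between −4.99 at Week 3 and 5.19 at Week 9.

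The change of the HF5 minus HFC difference per week was also fitted. At an unadjusted p under 0.05, the change per week was rising for 308 genes (1.61%) and falling for 558 (2.93%), and none passed adjustment in limma (smallest adjusted p 0.853). Together these 866 genes were 323 without Week 3, 550 without Week 15 and 1356 without Week 18. With quantile normalization 570 were rising and 318 falling, and without Week 18 695 and 661, so the split between the directions turned with either choice. Of 15 clock genes 2 were rising and 1 falling at that unadjusted p, and leaving out 1 week gave 1 to 3 rising and 1 to 2 falling. Per2, a repressor of the clock, had levels of −2.82 to −0.16 in HF5 (median −0.71) and of −0.85 to 0.48 in HFC (median −0.18). Its difference went from −2.27 at Week 3 and −2.35 at Week 6 to 0.70 at Week 18, a slope of 0.21 per week. A second Per2 probe gave a mean difference of −0.21 against −0.92 for the one used. Arntl, the activator BMAL1, took the opposite course, from 2.33 at Week 3 to −0.77 at Week 18, a slope of −0.23 per week.

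Of the 15 clock genes tested 12 had a lower estimate, with a median of −0.29 (−0.16 without Week 15). Dbp, an output gene that BMAL1 activates, was lower at all 6 weeks, by 0.16 to 2.37, with a mean of −1.01 (SE 0.32, limma adjusted p 0.863). Cry1, which represses the clock, was higher at all 6 weeks, with a mean of 0.84. The BMAL1 element CACGTG is in the promoters of 5 of 14 list genes (35.7%) against 7.2% of all promoters, those of Bhlhe41, Ciart, Cry1, Per1 and Tef. The hour at which the mice were killed is not given in the sources used here. Other genes named for their slope were Fam183b at 0.31 per week, and Camk4 at −0.41 and Sprn at −0.26, of which the Camk4 probe holds GAGAG or GAGGAG.

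**Figure D4:**
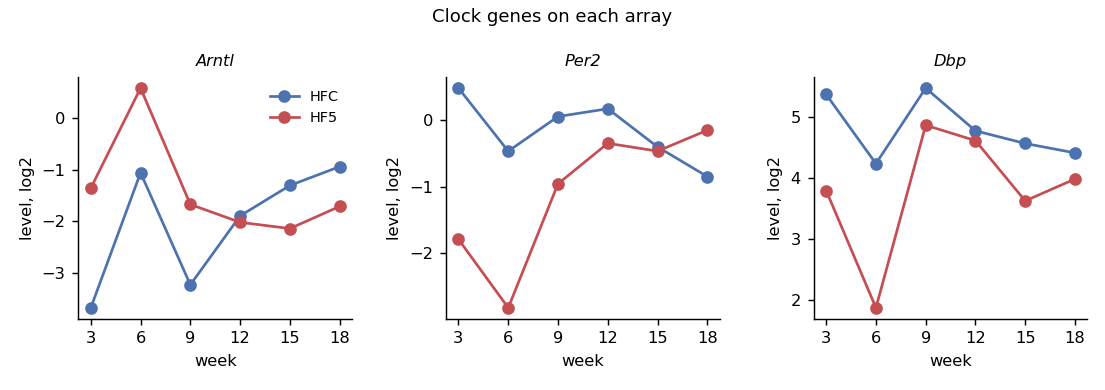
Levels of Arntl, Per2 and Dbp on each HF5 and HFC array by week, in log2 relative to the 75th percentile of the array. Arntl lies higher and Per2 lower in HF5 up to Week 9, both orders are turned at Week 18, and Dbp lies lower in HF5 at every week.

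Markers of other tissues differed between the arrays. All 14 skeletal muscle genes had a higher estimate in HF5, with a median of 2.13, and 6 of them were higher at an unadjusted p under 0.05 (2.54% of all genes): Myh4, a myosin (3.54), Tnnt3, Tnni2 and Tnnc2, the fast troponins (3.46, 2.59 and 2.30), Actn3, an actinin (2.68), and Pvalb, parvalbumin (3.73). The Myh4 and troponin probes were saturated on 1 HF5 array, and the Pvalb probe was not above background on 4 of the 6 arrays of HFC. The Myh4 probe holds GAGAG or GAGGAG, and another Myh4 probe without them gave 3.28. The mean level of the list was −3.73 to 5.35 in HF5 (median −1.30), the highest being Week 12, and −4.36 to −0.27 in HFC (median −3.50). HF5 was the higher at 5 of 6 weeks, with Week 18 as the exception. With the Week 12 arrays exchanged 0 of the 14 genes were higher at an unadjusted p under 0.05, beside 1.1% of all genes, and the median was 1.16. Without Week 12 these were 4, beside 3.92%, and 1.34. As labelled, 0 were higher without the week as a block, beside 1.69% of all genes. The same held with slide as a random block (0.535%) and in the unmoderated comparison of group means (1.38%). In the unmoderated paired comparison 1 was, beside 2.19%.

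All 12 B and T lymphocyte genes tested had a higher estimate, with a median of 0.59, and none passed an unadjusted p of 0.05. The mean level of the 14 lymphocyte genes on the array, tested or not, was −4.27 to −0.98 in HF5 (median −2.87). In HFC it was −5.27 to −1.60 (median −4.04), and the highest array was HF5 of Week 9. The median difference of the 12 tested was 0.15 when Week 9 was left out, 0.96 when Week 12 was and 1.04 when Week 15 was. Cd4, the coreceptor of helper T cells, differed by 1.06 (SE 0.58, limma adjusted p 1.00) and was above background on 5 HF5 and 3 HFC arrays, and 5 of the 12 had a slope below 0 at an unadjusted p under 0.05, beside 2.93% of all genes. That count was 3 without Week 3, beside 1.17%, and 3 to 7 over the weeks left out in turn. Without both Weeks 9 and 12, a choice made after seeing these levels, 1093 genes were higher and 1180 lower at an unadjusted p under 0.05, and 0 passed adjustment. The part of these markers in the other differences was not tested.

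**Figure D5:**
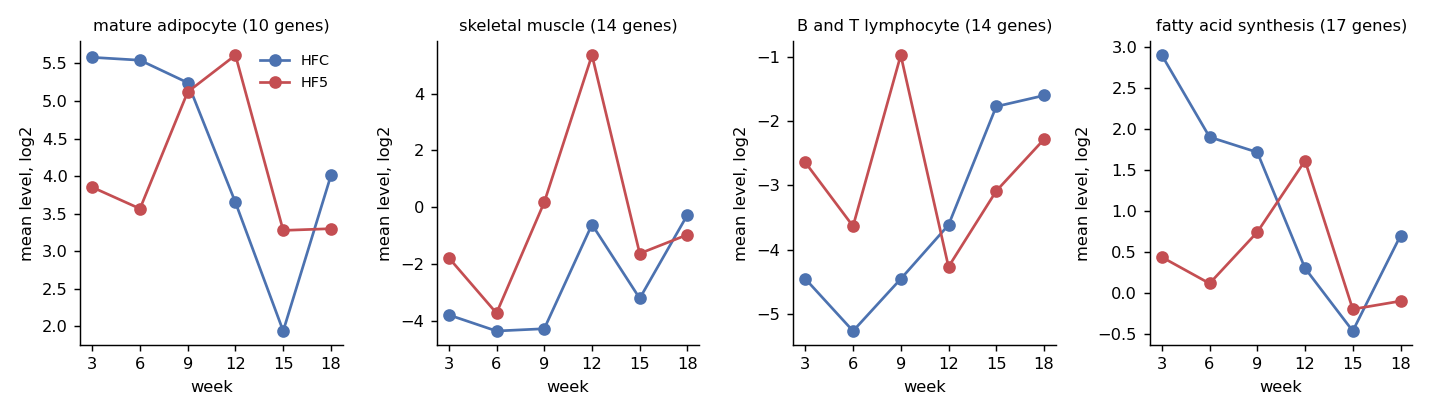
Mean level of cell type marker and fatty acid synthesis genes on each HF5 and HFC array, in log2 relative to the 75th percentile of the array. The muscle genes reach 5.35 on the HF5 array of Week 12, against at most −0.27 in HFC, and the lymphocyte genes reach −0.98 on the HF5 array of Week 9.

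HF5 was set against the higher doses in a fit of all 30 arrays of the 5 diets, which share the HF5 arrays. For HF20 minus HF5, 203 of 20932 genes (0.97%) had an unadjusted p under 0.05 and none passed adjustment in limma. The Week 12 labels in doubt are those of HF5 and HF20, and with these arrays exchanged there were 286. Leaving out 1 week gave 97 (Week 15) to 514 (Week 18), with 356 without Week 3 and 199 without Week 12. For HF75 minus HF5 there were 379 (1.81%), again with none after adjustment. That count was 335 with the exchange, 1326 without Week 12, 242 without Week 3 and 158 without Week 18. With normexp background correction 5595 genes passed adjustment for HF20 minus HF5, so that call of 0 depended on the setting. The median difference of all genes moved with it from 0.00 to 0.28. For HF75 minus HF5 the same correction gave 0 genes, with a median of 0.21. The HF20 array of Week 15 stood apart, with 4936 outlier spots and 87.8% of its spots well above background. The other arrays of that week had 29 to 84 outlier spots and 65.3% to 70.4% well above background. The part of that array and the cause were not tested.

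The weekly differences had little in common across genes. At least a 2-fold difference was seen in 33.5% of genes at Week 3, 24.1% at Week 6, 30.3% at Week 9, 31.4% at Week 12, 12.8% at Week 15 and 18.1% at Week 18. The 15 correlations between the weekly profiles over 19025 genes lay between −0.398 and 0.48 (median 0.063), 6 of them below 0. Genes are not independent, so these are descriptions. Week 12 had the lowest mean correlation with the other weeks, at −0.118, and Week 3 the highest, at 0.18.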

How the data were processed

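Total RNA of mouse subcutaneous adipose tissue was labelled with Cy3 and hybridised to Agilent 1-colour arrays. Per the file headers, the deposited spot intensities come from Agilent Feature Extraction 10.5.1.1 (9.1 in the submitters' processing notes), background-subtracted and not normalized between arrays, and the deposited flags mark spots well above background, saturated or outlying. The deposited series table holds log2 ratios made by the authors, each array being set over the matching LFC array, and was used to check labels and as an alternative.

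For each of 43803 spots, log2 of the processed intensity minus the 75th percentile of the array was taken. Outlier spots were left out and spots of a probe averaged (40628 probes). Each of 29411 gene names was represented by 1 probe, and genes well above background on at least 6 of the 12 arrays were tested (19072). Week 9 intensities are rounded to 3 significant digits. The number of arrays limits the precision.

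The fit of HF5 and HFC used limma 3.58.1 (R 4.3.3), the week being a block, two-sided, with Benjamini-Hochberg adjustment and a threshold of 0.05. The change per week was the diet by week coefficient, and the doses were compared in 1 fit of 30 arrays. The script was tested on simulated data. The week pairs arrays by design. Deviations of same-week arrays correlated at −0.12 to 0.529.

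Named genes were, in each direction, the 10 with the smallest p among genes of the same sign at all 6 weeks, above background on at least 4 of the 6 arrays of the higher diet and with a non-provisional symbol, a list of 13 always named, the members of each list with p under 0.05 or the smallest p, and 3 genes a direction for the slope. A gene that the rule names is not reported here. Lists held 548 genes, 545 on the array and 10 by an older symbol. Members, lists and rules were chosen with earlier results of these data known. Lists are described by counts and medians. Promoters are RefSeq's, GRCm38.p6. The array annotation uses another build, so no probe coordinates are given. Alternatives covered background correction, normalization, filters, probes, weights, blocks, weeks left out and the Week 12 exchange.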

Additional observations from a re-analysis of the deposited data

Results flagged for a closer look

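For 88 sets of 6 values, the gap of the most distant array was divided by the range of the set. The ratio exceeded 0.625, Dixon's limit for 6 values, in 8 sets, and chance alone does so in about 1 in 20. Tmem55a was at 5.61 on the HF5 array of Week 6, below 6.48 to 6.86 on the other HF5 arrays. Cask was at 3.15 on the HFC array of Week 12, above −0.486 to 0.841. Oip5 was at −4.9 on the HF5 array of Week 9, above −6.08 to −5.7. Syp was at −2.98 on the same array, above −4.25 to −3.89. Hmmr was at −4.79 on the HF5 array of Week 3, above −6.23 to −5.82. Ucp1 was at 3.37 on the HFC array of Week 3, above −3.81 to −1.48. The mean level of the liver genes was −2.38 on that array, above −5.34 to −4.79. The mean level of the Y-linked genes was −0.439 on the HF5 array of Week 3, above −1.9 to −1.39.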

How the results depend on the processing

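No gene passed adjustment between HF5 and HFC, or for the change per week, under any alternative run. In place of 661 genes at an unadjusted p under 0.05 there were 1305 without Week 12 (also with shared scan days only or scan day as a block), 254 in the fit of 30 arrays, 250 with slide as a random block, 1247 with array weights, 2273 without Weeks 9 and 12, and 355 without GAGAG and GAGGAG probes (378 with the Week 12 exchange too). Leaving out 1 week gave 507 to 1305. The higher genes, 485, were 209 with the exchange, 747 without Week 12, 129 in 30 arrays, 102 with slide, 263 unmoderated, 214 in the series table, 1093 without Weeks 9 and 12, and 180 or 142 without the probes. Without the pairing (no replicate block) they were 323, and leaving out 1 week gave 370 to 747. The lower genes, 176, were 558 without Week 12, 114 with normexp, 617 with weights, 283 in the unmoderated paired comparison and 1180 without Weeks 9 and 12, with 84 to 558 on leaving out 1 week. Of the genes at an unadjusted p under 0.05 73.4% were higher, against 88.1% without Week 18, 83% without Week 15, 78.8% with normexp, 77.4% without Week 6, 46% with the exchange, 57.2% without Week 12, 58.7% without Week 9, 50.8% in 30 arrays, 57.9% and 59.6% unmoderated, 47.3% in the series table, 50.5% with weights and 40.8% with slide. The slope count, 866, was 4292 without the filter and 323 to 1356 on leaving out 1 week. For HF20 minus HF5, normexp gave 5595 adjusted and 9162 unadjusted calls, no filter 1489, no pairing 109 and leaving out 1 week 97 to 514. For HF75 minus HF5, no filter gave 694, no pairing 171 and leaving out 1 week 158 to 1326. Signs turned for 5 genes. Ucp1 was −0.79 without Week 9 and 1.25 without Week 3, −0.10 with slide, −0.12 with normexp and −1.17 without Weeks 9 and 12. Adipoq was 0.001116 without Week 6 and −1.01 without Week 12. Emr1 was 0.033 with the exchange (with or without the GAGAG and GAGGAG probes), 0.033 with slide, 0.042 in the series table, and on leaving out 1 week −0.66 (Week 9) to 0.25 (Week 12), including 0.04 (Week 3) and 0.07 (Week 15). Ccl2 was 0.51 with slide and Cpt1b −0.19 without Weeks 9 and 12. The cause was not tested. Leaving out the GAGAG and GAGGAG probes or both Weeks 9 and 12 was chosen after seeing the data.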

Other observations

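Several gene groups of adipose tissue had no member at an unadjusted p under 0.05. Of 14 endothelial genes 12 had a higher estimate in HF5, with a median difference of 0.20 (−0.12 without Week 3, 0.62 without Week 9), and of 10 hypoxia genes 8 did, with a median of 0.12 (−0.04 without Week 12, 0.22 without Week 6), the smallest p there being that of Ankrd37 at 0.74 (SE 0.49). Of 21 oxidative phosphorylation genes 14 had a lower estimate, with a median of −0.13 (−0.36 without Week 12, 0.04 without Week 3) and Cox5b, a subunit of cytochrome oxidase, at −0.28 (SE 0.27). Heat shock genes had 8 of 9 lower estimates and a median of −0.11 (0.11 with the Week 12 arrays exchanged, −0.22 without Week 18), and the glucocorticoid response 9 of 11 and a median of −0.08 (−0.23 without Week 15, −0.01 without Week 9). Chemokine genes were split, 10 higher and 8 lower, with a median of 0.01 (0.30 without Week 12, −0.21 without Week 3) and Cxcl13, which attracts B cells, at 1.09 (SE 0.75) and at 1.84 without Week 12. The median over all genes tested was −0.01.

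Families of genes were also picked by name after the values were seen. Of 7 immunoglobulin variable segments tested, 2 were higher in HF5 at an unadjusted p under 0.05 (2.54% of all genes), with a median difference of 0.91. Among these 2 was Igk-V8-16, whose probe holds GAGAG or GAGGAG. Over the 13 segments on the array, tested or not, the mean level had a median of −4.65 in HF5 and −5.61 in HFC. Of 109 olfactory receptors tested, 6 were higher and 4 lower, beside 2.54% and 0.923% of all genes, with a median difference of 0.13. Over the 1067 on the array the mean level had a median of −6.87 in HF5 and −7.32 in HFC. At the same p no vomeronasal receptor of 15 tested differed, 2 Rhox genes of 5 were higher and 1 lower, and 1 Skint gene of 2 was higher. Serpina1d, matched through an older symbol of a family of near-identical genes of protease inhibitors, differed by −0.73 (SE 0.28), and the family members cannot be told apart here. Cyp1a1, a target of the aryl hydrocarbon receptor, differed by 1.25 (SE 0.55), and was well above background on 5 of 6 HF5 and 2 of 6 HFC arrays. Hmox1, the heme oxygenase, differed by 0.80 (SE 0.43), with 3.13 at Week 3. Vegfa, an endothelial growth factor, differed by −0.78 (SE 0.81), with −4.42 at Week 3 and 1.95 at Week 12, a slope of 0.36 per week. Other Vegfa probes gave mean differences of −0.15, −0.31 and −0.54. The 485 higher genes had a median level of −0.768 in HF5 and −2.86 in HFC, and the 176 lower genes −2.97 and −2.10, against −0.477 and −0.466 over all genes tested. Provisional names made up 37.3% of the higher, 19.3% of the lower and 30.5% of all genes tested.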
